A study of Mus musculus with 17 samples.

Results

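The genes described here encode the nuclear subunits of the mitochondrial respiratory chain and of the ATP synthase, with the assembly factors that carry the same name stems. The name rule was set with earlier results of these data known, and membership then depended on the name only. A probe set was a member if it was annotated to exactly 1 gene symbol and that symbol began with Ndufa, Ndufb, Ndufc, Ndufs, Ndufv, Sdh, Uqcr, Cox4 to Cox8 or Atp5, with pseudogenes left out. This gave 118 probe sets of 93 genes among 21354 probe sets with 1 symbol, out of 24680 probe sets on the array. By position in the chain, 16 probe sets belonged to the peripheral arm of complex I, 23 to its membrane arm and 7 to its assembly factors, 4 to complex II and 5 to its assembly factors, 11 to complex III, 23 to complex IV and 29 to the ATP synthase. For 18 of the 93 genes more than 1 probe set was present, with at most 5 for a single gene.

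Complex I oxidises NADH in its peripheral arm and pumps protons through its membrane arm, complex II feeds in electrons from succinate, complex III passes electrons to cytochrome c, and complex IV hands them to oxygen. The proton gradient that complexes I, III and IV build drives the ATP synthase. Part of the core of complexes I, III, IV and of the ATP synthase is encoded by mitochondrial DNA and lies outside the name rule, so the members are the nuclear share, most of them small accessory subunits. Plasmacytoid dendritic cells (pDC) sense nucleic acids in endosomes and are the main producers of type I interferon, and oxidative metabolism is among the programmes known to change when they are activated.

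The study cultured pDC from the bone marrow of C57BL/6 mice, enriched by negative magnetic selection and then sorted as cells with intermediate CD11c, B220 and SiglecH, and measured them on 17 Affymetrix arrays. The cells received a CpG oligonucleotide, which stimulates the endosomal receptor TLR9: CpG-A is the 2216 oligonucleotide and CpG-B the 1826 oligonucleotide, each at 6 µg/ml for 19 to 23 h. LIF, a cytokine of the interleukin-6 family, was used at 10 ng/ml; where CpG followed, LIF preceded it by 1 h, and contact with LIF lasted 20 to 24 h. The groups were CpG-A + LIF, CpG-A, CpG-B + LIF, CpG-B and LIF alone with 3 arrays each, and untreated cells in medium with 2 arrays, labelled replicates 1 and 3. The labels do not say whether replicates came from separate mice or cultures, so p-values measure the spread between these arrays, which may be technical, and the number of arrays limits their precision.

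The deposited values carried the digits of linear intensities without the decimal mark, so that each value was known only up to powers of 10. A difference between 2 groups was therefore given as its nearest log2 reading, which lies within 1.66 of 0 on the log2 scale (3.16-fold). Every such reading has an alternative that lies 3.32 away. A direction, higher or lower, was given only where the reading was within 1.11 of 0 (2.15-fold), because the alternative is then at least a 4.64-fold change the other way; larger readings are printed with their alternative and their direction is not settled. A true change near 10-fold would read near 0. The lost decimal mark also removes absolute levels, so neither the cell-type labels nor the members could be checked by level. In 111 of the 118 members (94.1%, against 87.1% of all probe sets) the readings of all 17 arrays lay within 3.16-fold of each other. The median within-group SD was 0.173 for members and 0.191 for all probe sets (log2). A probe set was called at an adjusted p under 0.05 (limma across all arrays, Benjamini-Hochberg over the 21354 probe sets). The arrays hold bulk RNA, in which fewer cells of a type and less RNA per cell cannot be told apart.

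The members as a whole separated the CpG classes. The median reading of the 118 members, taken in each array against the mean of the medium arrays, was -0.094, 0.13 and 0.015 in the CpG-A + LIF arrays and -0.15, 0.029 and -0.10 in the CpG-A arrays. It was 0.30, 0.24 and 0.23 in the CpG-B + LIF arrays and 0.13, 0.18 and 0.19 in the CpG-B arrays, against -0.062, 0.018 and -0.019 with LIF alone. Each CpG-B array thus lay above each CpG-A array, and each CpG-B + LIF array above each CpG-A + LIF array, although CpG-A + LIF replicate 2 reached the lowest CpG-B array. The shift is small, well under a log2 unit, and no test was run on these medians.

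**Figure D1:**
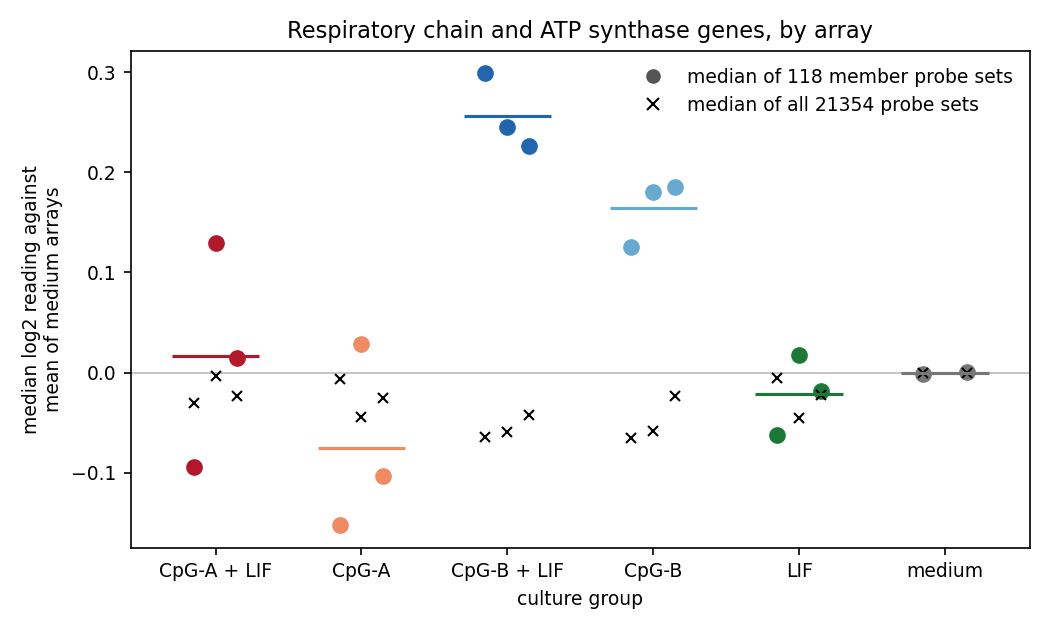
Median log2 reading of the 118 members in each of the 17 arrays, against the mean of the medium arrays (vertical axis, log2), by culture group (horizontal axis). Dots are arrays, lines are group means of the array medians, and crosses are the medians over all 21354 probe sets. The CpG-B + LIF arrays sit between 0.23 and 0.30, the CpG-B arrays between 0.13 and 0.19, and the CpG-A arrays between -0.15 and 0.029.

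The comparison of the CpG classes asked which members differed between cells given CpG-A and cells given CpG-B at the same concentration and time. Without LIF, 100 of the 118 members read lower with CpG-A and 18 higher, with a median of -0.19, against a median of 0.039 over all probe sets, of which 56.4% read higher. Called were 15 members (12.7%, where 12.9% of all probe sets were called), 13 of them lower, 0 higher and 2 with unsettled direction. The share called was therefore at the background. Called lower were 11.0% of members and 6.21% of all probe sets, and called higher were 0 members and 4.29% of all probe sets. With LIF in both cultures, 29 members were called (24.6%, where 16.9% of all probe sets were called), 28 of them lower (23.7%, against 8.12%), 0 higher (against 5.52%) and 1 with unsettled direction. The median with LIF was -0.27, against 0.052 over all probe sets, and again 100 members read lower. These are descriptions of a list chosen with earlier results known, and no test was run over the list.

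By complex, the assembly factors of complex I and the subunits of complex III had the lowest medians, and the median of complex IV lay near 0. The 7 assembly factors of complex I had a median of -0.66 with LIF and -0.49 without it, and the 11 complex III probe sets -0.44 with LIF and -0.33 without it. The membrane arm of complex I had a median of -0.39 with LIF and -0.23 without, its peripheral arm -0.28 and -0.19, and the ATP synthase -0.25 and -0.16 in the same order. The 23 complex IV probe sets had medians of -0.073 with LIF and -0.0042 without it, and 9 of the 23 with LIF and 11 without it read higher with CpG-A than with CpG-B. No complex IV probe set was called by limma in either comparison, while 4 had an unadjusted p under 0.05 in each. Of all 21354 probe sets, 6121 with LIF and 5149 without it had an unadjusted p under 0.05. Complex II had no call either, with 0 of its 4 probe sets at an unadjusted p under 0.05 with LIF and 1 without.

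**Figure D2:**
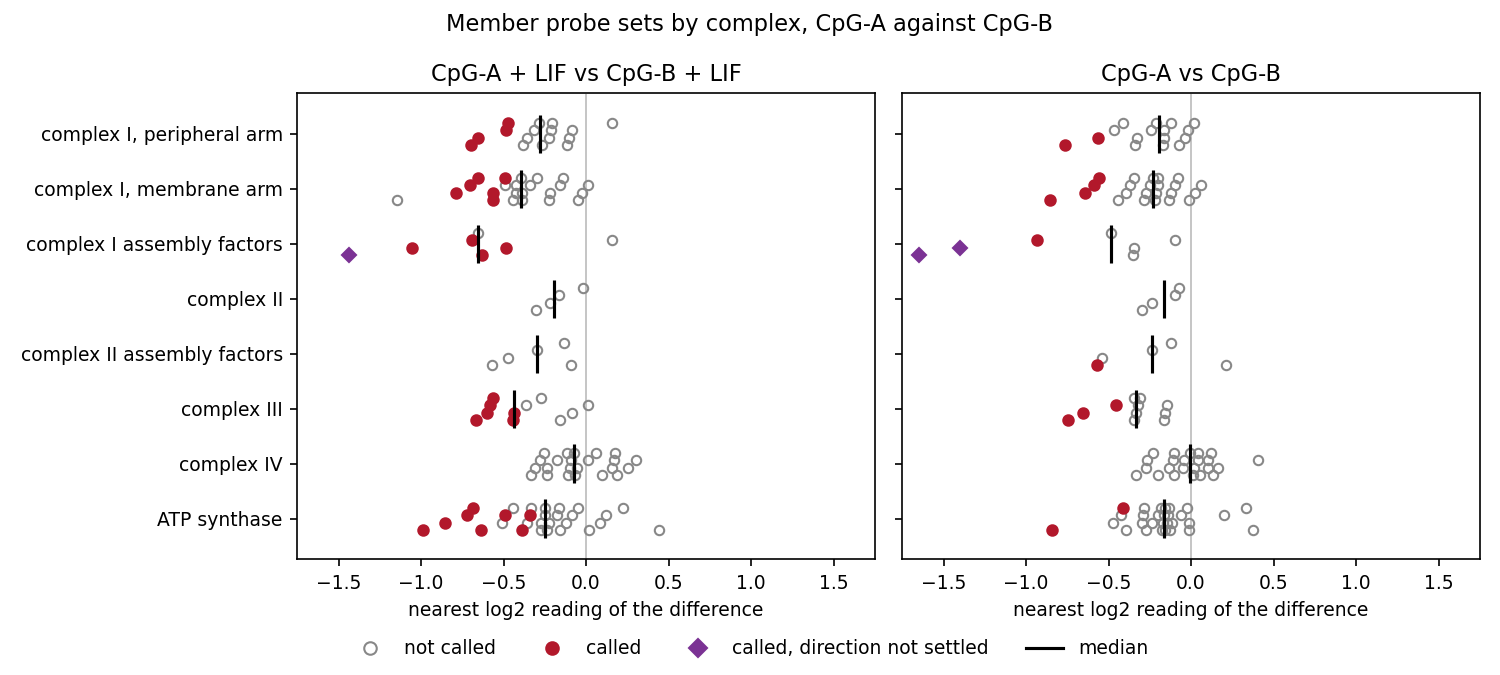
Nearest log2 reading of every member (horizontal axis) by complex (rows), CpG-A + LIF against CpG-B + LIF on the left and CpG-A against CpG-B on the right. Filled circles are called members, diamonds are called members whose direction is not settled, open circles are not called, and bars are medians. All called members lie below 0, and the complex IV row is centred near 0 with no call.

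The promoters of 3 members that separated the CpG classes and of 1 member that fell with both classes are given here, so that the values below can be read beside their start sites. They are the RefSeq windows of mouse build GRCm38.p6 that run from 250 bases before to 50 bases after the transcription start, 5′ to 3′ on the gene's strand: Ndufaf4 at chr4:24897833-24898132 (plus strand), Atp5g1 at chr11:96075582-96075881 (minus strand), Ndufa12 at chr10:94198785-94199084 (plus strand) and Cox7a2l at chr17:83514284-83514583 (minus strand). Capitals mark a match to 1 of the 4 motifs searched on both strands.
Ndufaf4: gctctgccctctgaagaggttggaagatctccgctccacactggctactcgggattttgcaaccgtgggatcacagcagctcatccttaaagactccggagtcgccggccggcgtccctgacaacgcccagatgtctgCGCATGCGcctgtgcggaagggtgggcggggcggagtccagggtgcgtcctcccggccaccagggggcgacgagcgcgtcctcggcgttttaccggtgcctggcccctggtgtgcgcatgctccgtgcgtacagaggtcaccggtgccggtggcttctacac
Atp5g1: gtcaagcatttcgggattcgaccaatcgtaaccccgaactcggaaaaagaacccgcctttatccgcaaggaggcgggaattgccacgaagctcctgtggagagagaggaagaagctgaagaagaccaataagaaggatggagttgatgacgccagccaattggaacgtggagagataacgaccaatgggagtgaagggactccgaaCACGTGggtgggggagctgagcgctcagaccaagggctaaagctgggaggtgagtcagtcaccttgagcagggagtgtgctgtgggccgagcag
Ndufa12: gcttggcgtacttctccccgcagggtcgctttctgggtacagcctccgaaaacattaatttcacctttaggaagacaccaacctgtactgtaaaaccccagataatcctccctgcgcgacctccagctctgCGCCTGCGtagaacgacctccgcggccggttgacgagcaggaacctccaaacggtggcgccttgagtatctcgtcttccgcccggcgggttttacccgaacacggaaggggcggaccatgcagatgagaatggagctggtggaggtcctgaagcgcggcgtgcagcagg
Cox7a2l: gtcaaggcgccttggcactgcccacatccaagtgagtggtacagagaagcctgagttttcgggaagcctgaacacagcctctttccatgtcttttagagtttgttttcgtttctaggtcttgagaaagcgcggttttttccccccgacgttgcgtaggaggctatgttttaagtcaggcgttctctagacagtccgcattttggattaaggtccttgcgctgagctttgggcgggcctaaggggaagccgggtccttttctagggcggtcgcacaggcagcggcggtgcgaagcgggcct
The motifs were CGCANGCG, the core bound by NRF-1 (chosen after a longer form had been counted), CCGGAAG, bound by ETS factors such as GABP, AANATGGCG, bound by YY1, and the E-box CACGTG, bound by MYC and USF proteins. The Ndufaf4 and Ndufa12 windows each held 1 NRF-1 match and the Atp5g1 window 1 E-box, and the Cox7a2l window held no match. RefSeq windows were found for 77 of the 93 member genes, 82 windows in all. The NRF-1 letters stood in 33 of these 82 windows (40.2%), against 8.21% of all 32851 windows, and the ETS letters in 21 (25.6%), against 8.86%. The YY1 letters stood in 11 (13.4%), against 2.38%, and the E-box in 7 (8.54%), against 7.15%. In no member window did matches of 2 motifs overlap. A match describes letters and not a bound site, and it was not tested against the readings.

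The assembly factors of complex I gave the largest differences between the CpG classes. Ndufaf4, which acts early in building complex I, read -1.07, -0.99 and -1.04 in the CpG-A arrays and 0.61, 0.73 and 0.49 in the CpG-B arrays, against 0.25 and -0.25 in medium. With LIF it read -0.56, -0.34 and -0.46 in the CpG-A + LIF arrays and 1.02, 0.94 and 0.99 in the CpG-B + LIF arrays, against 0.04, 0.35 and -0.07 with LIF alone. The CpG-A arrays all lay below medium and the CpG-B arrays all above it, with no overlap. Against medium Ndufaf4 fell with CpG-A (-1.03 ± 0.15 SE, 0.488-fold, adjusted p = 0.00013) and rose with CpG-B (0.61 ± 0.15, 1.53-fold, adjusted p = 0.0085), both readings being small enough for a direction. The rise with CpG-B rests on both medium arrays: without medium replicate 3 the reading was 0.36 and the adjusted p 0.22. Set directly against each other, CpG-A and CpG-B differed by -1.65 ± 0.14 (alternative 1.68, adjusted p = 1.7e-06), which is so near the middle of the scale that the direct comparison by itself has 2 possible readings. With LIF the difference was -1.44 ± 0.14 (alternative 1.88, adjusted p = 3.4e-06).

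Ndufaf2, a late assembly factor of complex I and a relative of the subunit Ndufa12, read -0.53, -0.34 and -0.70 in the CpG-A arrays and 1.15, 0.66 and 0.82 in the CpG-B arrays, against 0.05 and -0.05 in medium. The CpG-A arrays did not overlap the CpG-B arrays, and the difference was -1.40 ± 0.21 (alternative 1.92, adjusted p = 0.00017). With LIF it was lower with CpG-A than with CpG-B by a settled reading of -1.06 ± 0.21 (adjusted p = 0.0015), although the CpG-A + LIF arrays spread widely, at -0.17, 0.44 and -0.64. Ndufaf6, another early assembly factor, was lower with CpG-A than with CpG-B without LIF (-0.94 ± 0.23, adjusted p = 0.0097, 0.057 without CpG-A replicate 3). With LIF, the assembly factors Ndufaf5 (-0.69), Ndufaf7 (-0.48) and Ndufaf1 (-0.63) were also called lower with CpG-A, while Ndufaf6 (-0.66, adjusted p = 0.058) and Ndufaf3 (0.15, adjusted p = 0.55) were not called.

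Within complex I itself, both accessory and core subunits were called. Ndufa12, an accessory subunit of the peripheral arm, read 0.09, 0.18 and 0.11 in the CpG-A arrays and 0.90, 0.83 and 0.96 in the CpG-B arrays, against -0.14 and 0.14 in medium. The CpG-A arrays overlapped the medium arrays and the CpG-B arrays stood apart from both. It was lower with CpG-A than with CpG-B without LIF (-0.77 ± 0.12, 0.588-fold, adjusted p = 0.00019) and with LIF (-0.70 ± 0.12, 0.616-fold, adjusted p = 0.00035). Ndufab1, the acyl carrier protein of mitochondria and a subunit of complex I, read -0.06, 0.00 and 0.02 in the CpG-A arrays and 0.84, 0.71 and 0.98 in the CpG-B arrays, and differed by -0.86 ± 0.14 (adjusted p = 0.00042). A second Ndufab1 probe set did not follow it, with 0.03 without LIF and -1.15 with LIF, neither called. Ndufs6, an accessory subunit of the peripheral arm, was lower with CpG-A by -0.65 with LIF and by -0.56 without, and Ndufc2, a small membrane-arm subunit, by -0.56 and -0.59. With LIF, Ndufa10 (-0.65), Ndufb10 (-0.79) and Ndufv1 (-0.48), the subunit that holds the FMN and takes electrons from NADH, were called lower as well, while without LIF they read -0.39, -0.25 and -0.34 and were not called. Whether the CpG difference itself changed with LIF was not tested.

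In complex III the 3 calls without LIF and the 6 with LIF were all lower with CpG-A. Uqcr10, a small accessory subunit, read -0.51, -0.08 and -0.18 in the CpG-A arrays and 0.45, 0.48 and 0.54 in the CpG-B arrays, with no overlap. The difference was -0.75 ± 0.12 without LIF (adjusted p = 0.00043) and -0.67 ± 0.12 with LIF (adjusted p = 0.00093). The core protein Uqcrc2 was lower with CpG-A by -0.56 with LIF (adjusted p = 0.0050) and -0.46 without (adjusted p = 0.024, lost without CpG-A replicate 1 or 3 or CpG-B replicate 2 or 3), and the core protein Uqcrc1 by -0.44 with LIF (adjusted p = 0.028). Uqcrfs1, the Rieske iron-sulfur protein, read -0.08 with LIF and -0.16 without, neither called, and both probe sets of Uqcr11 were called with LIF, at -0.58 and -0.60.

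In the ATP synthase, the genes of the membrane c ring gave the strongest calls. Atp5g1, 1 of 3 genes for the same mature c subunit, read -0.34, 0.18 and -0.06 in the CpG-A arrays and 0.75, 0.79 and 0.77 in the CpG-B arrays, against 0.03 and -0.03 in medium. The CpG-A arrays lay around medium and the CpG-B arrays well above it. The probe set was lower with CpG-A by -0.84 ± 0.13 without LIF (0.557-fold, adjusted p = 0.00023) and by -0.99 ± 0.13 with LIF (0.505-fold, adjusted p = 4.6e-05). A second Atp5g1 probe set read -0.14 and -0.27 in these comparisons, neither called. Of 3 Atp5g2 probe sets, 2 were called lower with LIF (-0.85 and -0.72), and Atp5g3 read -0.47 without LIF and -0.44 with it, with adjusted p of 0.054 and 0.060. The catalytic subunit Atp5b was lower with CpG-A by -0.49 with LIF (adjusted p = 0.0089) and read -0.30 without (adjusted p = 0.13). Atp5o, which ties the catalytic head to the stalk, was lower by -0.64 ± 0.13 with LIF (adjusted p = 0.0020) and -0.41 ± 0.13 without (adjusted p = 0.044, 0.17 without CpG-A replicate 1).

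Of the other core subunits, several were called with LIF and none without it. With LIF, Ndufs7, an iron-sulfur subunit next to the quinone site of complex I, was called at -0.47 (adjusted p = 0.049), and in the ATP synthase Atp5d and Atp5c1, subunits of the rotating central stalk, at -0.68 and -0.34 (adjusted p = 0.012 and 0.041). Without LIF they read -0.16, -0.29 and -0.14, and each of the 3 calls with LIF was lost when single arrays were left out. Ndufs1, the large iron-sulfur protein of complex I, read -0.23 with LIF and -0.33 without it (adjusted p = 0.34 and 0.17). The complex II subunits Sdha, Sdhb, Sdhc and Sdhd read -0.30, -0.02, -0.22 and -0.17 with LIF and -0.07, -0.10, -0.30 and -0.23 without, none of them called. In complex IV, Cox5a, which sits on the matrix side, had the lowest reading without LIF (-0.33 ± 0.12, adjusted p = 0.093) and Cox4i1, the widely used isoform of the largest nuclear subunit, the highest (0.41 ± 0.18, adjusted p = 0.17). Atp5a1, which forms the catalytic head together with Atp5b, was called with LIF (-0.39, adjusted p = 0.048) but lost the call in most alternatives, and read -0.01 without LIF. The highest ATP synthase reading without LIF was that of 1 of 5 Atp5l probe sets (0.38), a subunit of the membrane part, and the highest of complex III was Uqcrh (-0.14), so that all 11 complex III probe sets read lower with CpG-A than with CpG-B.

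Of the 15 members called between CpG-A and CpG-B without LIF, 10 were also called with LIF, which is 66.7% of the list without LIF and 34.5% of the list of 29 with LIF. They were Ndufa12, Ndufab1, Ndufs6, Ndufc2, Ndufaf2, Ndufaf4, Uqcr10, Uqcrc2, Atp5g1 and Atp5o. Called lower with CpG-A only without LIF were Ndufaf6, Ndufb2, 1 Uqcrb probe set (-0.65, adjusted p = 0.013), Ndufb8 (-0.56, adjusted p = 0.038) and Sdhaf1 (-0.57, adjusted p = 0.046). The counts depend on single arrays: 8 members were called without CpG-A replicate 1, and with LIF 17 without CpG-B + LIF replicate 1. Over all probe sets, leaving out single arrays gave at least 2032 calls (in place of 2747) and, with LIF, 2613 (in place of 3609). Through every alternative tried, 7 of the 15 calls and 15 of the 29 kept an adjusted p under 0.05. The 7 were Ndufaf4, Ndufaf2, Ndufa12, Atp5g1, Ndufab1, Uqcr10 and the membrane-arm subunit Ndufb2 (-0.64 ± 0.15, adjusted p = 0.0074). Ndufaf4 stayed called but its nearest reading turned, to 1.65 without CpG-A replicate 2 and to 1.62 without CpG-B replicate 3.

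**Figure D3:**
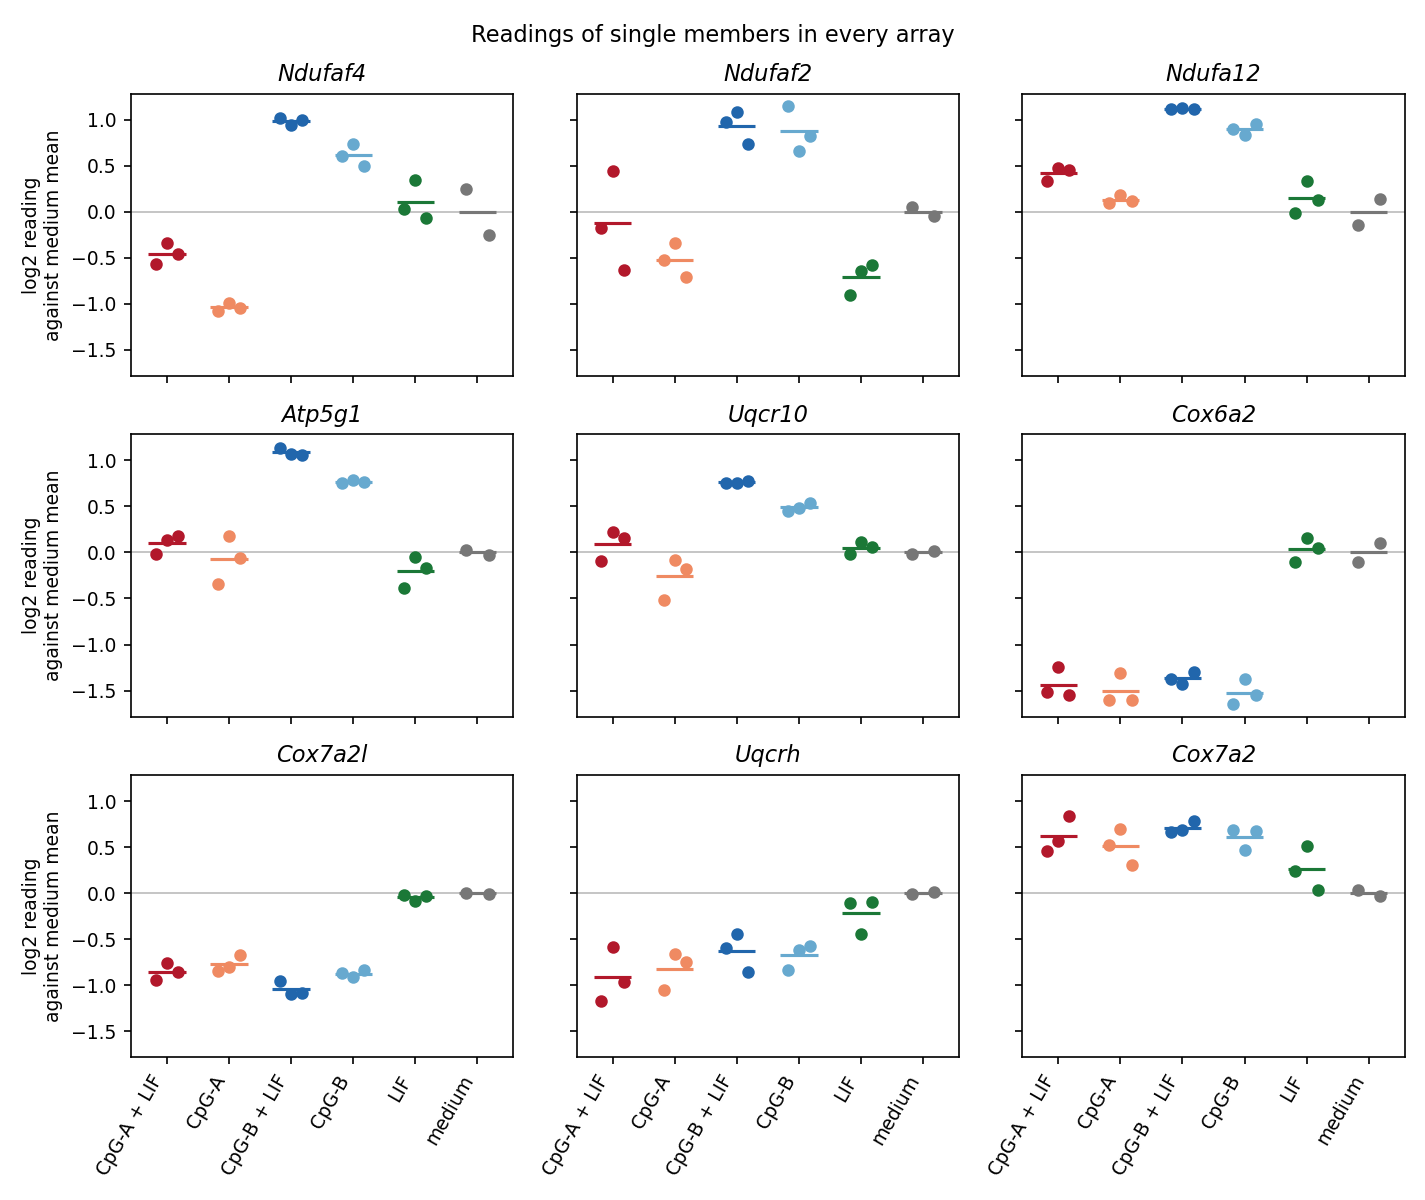
Log2 reading of 9 members in each array against the mean of the medium arrays (vertical axis, log2), by culture group (horizontal axis). Dots are arrays and lines are group means. Ndufaf4, Ndufaf2, Ndufa12, Atp5g1 and Uqcr10 separate the CpG classes, while Cox6a2, Cox7a2l, Uqcrh and Cox7a2 stand apart from medium with both.

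Against medium, CpG-B gave more higher than lower members. Of the 118, 79 read higher, with a median of 0.16, against -0.051 over all probe sets. Called were 24 members (20.3%, where 18.9% of all probe sets were called), 16 of them higher (13.6%, against 6.79%), 7 lower (5.93%, against 6.79%) and 1 with unsettled direction. The total was thus near the background. The medium group holds 2 arrays. Fewer members were called when either medium replicate 1 or medium replicate 3 was left out, which leaves 1 medium array.

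The 16 higher calls with CpG-B comprised 9 probe sets of complex I and its assembly factors, 4 of complex III, 1 of complex IV and 2 of the ATP synthase. Ndufa12 rose by 0.90 ± 0.13 (1.86-fold, adjusted p = 7.7e-05), Ndufab1 by 0.84 ± 0.16 (1.80-fold, adjusted p = 0.00078) and Atp5g1 by 0.77 ± 0.15 (1.71-fold, adjusted p = 0.00084). Ndufs4, an accessory subunit of the peripheral arm, read 0.58, 0.62 and 0.69 in the CpG-B arrays, against 0.06 and -0.06 in medium, and rose by 0.63 ± 0.13 (adjusted p = 0.0018). Uqcrq, a small subunit of complex III, read 0.77, 0.46 and 0.74, against -0.00 and 0.00 in medium, and rose by 0.66 ± 0.15 (adjusted p = 0.0043). In these members no CpG-B array overlapped medium. The assembly factors Ndufaf2 (0.88) and Ndufaf6 (0.79) and the subunits Ndufs6 (0.57), Ndufv2 (0.50), Ndufc2 (0.58), Uqcr10 (0.49), Uqcrb (0.51 and 0.58 in 2 of 3 probe sets), Cox7a2 (0.61) and Atp5md (0.53) were called higher too, but lost the call when single arrays were left out, medium replicate 3 being among them for each. All 4 calls among the 16 peripheral-arm probe sets were higher, as were all 3 among the 7 complex I assembly factors. In complex III 4 of the 5 calls among 11 probe sets were higher, and in the membrane arm 2 of the 4 among 23. Called higher were 25%, 42.9%, 36.4% and 8.7% of these groups in that order, against 6.79% of all probe sets. The share was 4.35% in complex IV, 6.9% in the ATP synthase and 0 in complex II and its assembly factors.

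With CpG-A against medium, the calls were fewer and mostly lower. Of the 118 members, 48 read higher, and the median was -0.058, against -0.022 over all probe sets. Called were 15 (12.7%, where 16.8% of all probe sets were called), 12 of them lower (10.2%, against 7.22%), 2 higher (1.69%, against 4.87%) and 1 with unsettled direction. The share called was below that of all probe sets, and fewer members were called when medium replicate 1 or medium replicate 3 was left out. Beside Ndufaf4, the calls that held through every alternative were Cox6a2, both Cox7a2l probe sets, 1 Ndufb11 probe set and Uqcrh. Sdha, the flavin-bearing subunit of complex II, was called at -0.58 (adjusted p = 0.045) and Sdhaf2, which attaches that flavin, at 0.55 (adjusted p = 0.036), and both calls were lost without medium replicate 1 or 3 and without other single arrays.

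**Figure D4:**
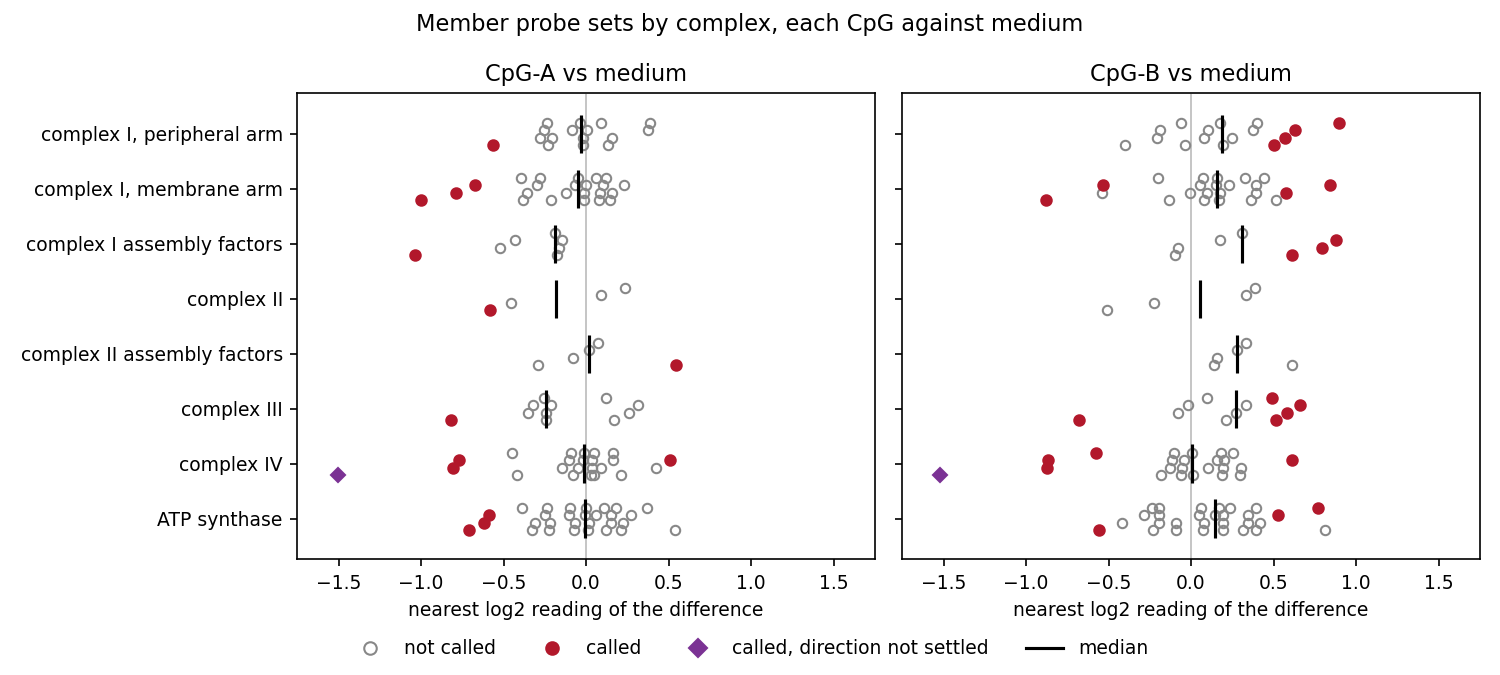
Nearest log2 reading of every member (horizontal axis) by complex (rows), CpG-A against medium on the left and CpG-B against medium on the right. Filled circles are called members, diamonds are called members whose direction is not settled, open circles are not called, and bars are medians. Complex medians lie between -0.24 and 0.017 with CpG-A and between 0.0070 and 0.31 with CpG-B.

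A few members stood apart from untreated cells with either CpG class. These comparisons share the medium arrays, or the LIF arrays where LIF was present, so the values are given side by side and not as separate support. Cox6a2, the isoform of a complex IV subunit known from heart and skeletal muscle and also in the list of pDC markers used here, read -1.51, -1.25 and -1.54 in the CpG-A + LIF arrays and -1.60, -1.31 and -1.60 in the CpG-A arrays. It read -1.38, -1.43 and -1.30 in the CpG-B + LIF arrays and -1.64, -1.38 and -1.55 in the CpG-B arrays, against -0.10, 0.15 and 0.05 with LIF alone and -0.11 and 0.11 in medium. All 12 CpG arrays stood together, far from the 5 arrays without CpG. Its reading was -1.50 ± 0.14 with CpG-A (alternative 1.82, adjusted p = 3.4e-06) and -1.52 ± 0.14 with CpG-B (alternative 1.80, adjusted p = 2.9e-06), so the direction is not settled. Its usual counterpart outside muscle, Cox6a1, read 0.09 with CpG-A and 0.20 with CpG-B, neither called.

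Cox7a2l, a relative of the Cox7a subunits that joins complexes III and IV into supercomplexes and that C57BL/6 mice are known to carry in a shortened form, fell with both classes in both of its probe sets. The first read -0.84, -0.81 and -0.67 in the CpG-A arrays and -0.87, -0.92 and -0.84 in the CpG-B arrays, against 0.01 and -0.01 in medium. The second read -0.80, -0.84 and -0.78 with CpG-A and -0.90, -0.87 and -0.82 with CpG-B, against 0.05 and -0.05 in medium. No CpG array came near the medium arrays in either probe set. The fall was -0.77 ± 0.11 and -0.81 ± 0.12 with CpG-A (0.586-fold and 0.571-fold, adjusted p = 0.00012 for each) and -0.87 ± 0.11 and -0.86 ± 0.12 with CpG-B (0.546-fold and 0.549-fold, adjusted p = 3.2e-05 and 5.5e-05). Against LIF alone the falls were -0.81 and -0.89 with CpG-A + LIF. The first probe set read -0.96, -1.09 and -1.08 in the CpG-B + LIF arrays, against -0.02, -0.08 and -0.03 with LIF alone, and the second fell by -0.82 in that comparison.

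Uqcrh, the hinge protein of complex III, read -1.06, -0.66 and -0.75 in the CpG-A arrays and -0.84, -0.61 and -0.58 in the CpG-B arrays, against -0.01 and 0.01 in medium. It fell by -0.82 ± 0.18 with CpG-A (adjusted p = 0.0036) and by -0.68 ± 0.18 with CpG-B (adjusted p = 0.013), the second call being lost without either medium array or without CpG-B replicate 1. Ndufb11, a membrane-arm subunit encoded on the X chromosome, fell in both probe sets: to 0.499-fold and by -0.67 ± 0.17 with CpG-A, and by -0.88 ± 0.17 and -0.54 ± 0.17 with CpG-B. The calls of the second probe set were lost without either medium array. The LIF arrays of Ndufb11 also read below medium, at -0.73, -0.63 and -0.32 in the first probe set (-0.56, limma adjusted p = 0.20). Against LIF alone its probe sets read -0.39 and -0.32 with CpG-A + LIF, and -0.092 and 0.10 with CpG-B + LIF, none called. Cox7a2, the widely used isoform of the subunit family to which Cox7a2l is related, went the other way, at 0.51 ± 0.16 with CpG-A and 0.61 ± 0.16 with CpG-B (adjusted p = 0.034 and 0.010), and both calls were lost without either medium array. Among the other paired isoforms, Cox6b2 read -0.45 with CpG-A and -0.57 with CpG-B, the second called (adjusted p = 0.026), while Cox6b1 read -0.01 and 0.10. Cox4i1, Cox4i2, Cox7a1, Cox8a, Cox8b, Cox8c, Ndufa4 and Ndufa4l2 had no call in any comparison.

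LIF by itself left the members close to medium. Their median was -0.0048, against -0.023 over all probe sets, and limma called 0 of the 118 (0.731% of all probe sets were called). An unadjusted p under 0.05 was found for 8 members and for 2198 of all 21354 probe sets. In simulated data only 4 of 50 changes of 0.5 log2 were called, so 0 calls do not exclude changes of that size. The lowest p-values belonged to Ndufb11 (-0.56 ± 0.17, adjusted p = 0.20), Ndufaf2 (-0.71 ± 0.23, adjusted p = 0.23) and Ndufs7 (-0.53 ± 0.18, adjusted p = 0.24), the iron-sulfur subunit of complex I named above. Added to CpG-B, LIF also gave 0 calls (0.0609% of all probe sets), with 10 members and 1618 of all 21354 probe sets at an unadjusted p under 0.05. In that comparison 92 of 118 members read higher with CpG-B + LIF than with CpG-B (78.0%, against 50.9% of all probe sets), with a median of 0.098 against 0.0040. The medians of the 8 complexes and assembly groups ran between 0.055 and 0.14. Added to CpG-A, LIF gave 0 calls (0.00468% of all probe sets), with 7 members and 1294 of all 21354 probe sets at an unadjusted p under 0.05. The median of the members was 0.060 and became -0.0043 without CpG-A + LIF replicate 2. Ndufaf4 had the lowest p there (0.58 ± 0.14, adjusted p = 0.28), and its 3 CpG-A + LIF arrays lay above its 3 CpG-A arrays.

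Whether LIF acted differently with and without CpG was tested as an interaction in the same fit. For CpG-A 0 members were called (0.0421% of all probe sets were), and 6 members and 1521 of all 21354 probe sets had an unadjusted p under 0.05. For CpG-B 0 members were called (0.108% of all probe sets were), and 13 members and 2112 of all 21354 probe sets had an unadjusted p under 0.05. The members with the lowest p for CpG-B were Ndufs7 (1.02 ± 0.24, adjusted p = 0.11), 1 probe set of Ndufb11 (0.98 ± 0.23, adjusted p = 0.12) and Uqcrc1 (0.70 ± 0.20, adjusted p = 0.20). Ndufs7 read 0.11, 0.10 and 0.05 in the CpG-B + LIF arrays and -0.62, -0.21 and -0.36 in the CpG-B arrays, against -0.73, -0.62 and -0.26 with LIF alone and -0.10 and 0.10 in medium. Its CpG-B + LIF arrays lay above both of the single treatments.

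In cells that had LIF, CpG-B gave the largest count of called members of the 9 comparisons of groups. Against LIF alone, 97 of 118 read higher with CpG-B + LIF, with a median of 0.23, against -0.039 over all probe sets. Called were 40 (33.9%, where 25.3% of all probe sets were called), 33 of them higher (28.0%, against 10.4%), 3 lower (2.54%, against 8.88%) and 4 with unsettled direction. The 4 were Cox6a2 (-1.40, alternative 1.92), both Atp5g1 probe sets (1.29 and 1.20, alternatives -2.04 and -2.12) and Ndufaf2 (1.64, alternative -1.68), and the 3 lower were both Cox7a2l probe sets and Cox6b2 (-0.53). Of the 40 calls, 26 kept an adjusted p under 0.05 in every alternative, among them Ndufaf2, whose nearest reading turned when LIF replicate 2 or 3 (-1.65 and -1.61) or CpG-B + LIF replicate 3 (-1.58) was left out.

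Set beside the 10.4% of all probe sets called higher, the share called higher was 37.5% in the peripheral arm of complex I, 43.5% in its membrane arm and 45.5% in complex III, but 13.8% in the ATP synthase and 8.70% in complex IV. In complex I, Ndufa12 rose by 0.97 ± 0.12 (1.97-fold, adjusted p = 7.0e-06) and Ndufv1 by 0.54 ± 0.12 (1.46-fold, adjusted p = 0.0028), and both probe sets of the membrane-arm subunit Ndufa11 rose, by 0.65 and 0.62. Among its assembly factors Ndufaf4 rose by 0.88 ± 0.14, Ndufaf5 by 0.97 ± 0.18 and Ndufaf6 by 1.04 ± 0.23. Part of some of these differences lay in LIF groups below medium. With LIF alone against medium, the Ndufa11 probe sets read -0.39 and -0.28, Ndufaf5 -0.44 and Ndufv1 -0.23, none called. Ndufa12 and Ndufaf4 read 0.15 and 0.11 there. The complex III core proteins Uqcrc1 and Uqcrc2 rose by 0.79 ± 0.13 and 0.63 ± 0.13 (adjusted p = 0.00019 and 0.0012). Uqcrc1 read 0.47, 0.49 and 0.24 in the CpG-B + LIF arrays, against -0.50, -0.37 and -0.30 with LIF alone, so that part of its difference lay in LIF arrays below medium. Complex II was represented by Sdhc (0.47, adjusted p = 0.0097), a membrane anchor, and Sdhb (0.40, adjusted p = 0.031), its iron-sulfur subunit. In complex IV, where 6 of 23 were called, 1 of 2 Cox5b probe sets (0.45, adjusted p = 0.0071) and Cox7a2 (0.45, adjusted p = 0.027) were the 2 that rose. The ATP synthase subunits Atp5o (0.69 ± 0.13), Atp5b (0.39 ± 0.12) and Atp5md (1.03 ± 0.27 in 1 of 3 probe sets) rose as well.

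CpG-A + LIF against LIF gave no such rise. The median was 0.042, against 0.012 over all probe sets, and became -0.025 without CpG-A + LIF replicate 2. Called were 13 members (11.0%, where 17.4% of all probe sets were called), 10 of them lower (7.29% of all probe sets were), 2 higher (6.11% of all) and 1, Cox6a2 (-1.47, alternative 1.85), with unsettled direction. The lower calls included Ndufb10 (-1.04 ± 0.17, adjusted p = 0.00026), a membrane-arm subunit that read -1.15, -0.98 and -1.22 in the CpG-A + LIF arrays, against -0.10, 0.02 and -0.16 with LIF alone, with no overlap. They also included Uqcrh (-0.69), Ndufa6 (-0.58), Ndufaf4 (-0.56) and 2 Atp5g2 probe sets (-0.77 and -0.50). The higher calls were 1 probe set of Ndufa11 (0.44) and the second probe set of Atp5g1 (0.93 ± 0.27, limma adjusted p = 0.021). That Ndufa11 probe set read -0.28 with LIF alone against medium. The CpG-A + LIF arrays of that Atp5g1 probe set read 1.40, 0.43 and 0.20, so that the value leans on replicate 1. Without replicate 1 the reading was 0.57 and the adjusted p 0.14.

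Probe sets of the same gene did not always move together. Between CpG-A and CpG-B without LIF, probe sets of Atp5g2, Atp5l, Ndufab1 and Ndufs3 read on both sides of 0, and with LIF those of Atp5l, Atp5md, Cox7a2l, Ndufs3 and Uqcrb did. Several of these genes are known to have processed copies in the mouse genome, and the values do not show which copy a probe set measured, so single probe sets of Atp5g1, Atp5g2, Atp5l and Ndufab1 are uncertain. Both probe sets of Cox7a2l, Ndufb11, Ndufa11 and Ndufc1 had the same sign in CpG-B against medium.

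Genes that work beside the respiratory chain are given from lists that, like the members, were chosen with earlier results known. Cytochrome c and the mitochondrial carriers and channels followed the members between the CpG classes: of 20 probe sets none read higher with CpG-A than with CpG-B, 12 were called lower (60%, where 6.21% of all probe sets were called lower), and the median was -0.55. Called examples were Vdac1 (-0.99), the main channel of the outer membrane, the ATP and ADP carrier Slc25a5 (-0.59, -0.69 and -0.81 in 3 probe sets), Gpd2 (-0.71), which feeds electrons from glycerol phosphate, and Vdac2 (-0.64 and -0.52). With LIF, 12 of the 20 were called (16.9% of all probe sets were), 10 lower and 2 with unsettled direction, with a median of -0.48. In CpG-B against medium 8 of the 20 were called (18.9% of all probe sets were), 6 of them higher, and in CpG-A against medium 5 (16.8% of all), 2 of them higher. Cytochrome c (Cycs) rose with CpG-A (0.82 and 0.74 in its 2 called probe sets), and read 1.18 (alternative -2.14) and 0.97 with CpG-B.

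Of 21 probe sets for the tricarboxylic acid cycle and pyruvate entry, 8 were called between CpG-A and CpG-B (38.1%, against 12.9% of all probe sets), 6 lower and 2 unsettled, with a median of -0.31, and 12 with LIF (57.1%, against 16.9%), 9 lower and 3 unsettled, with a median of -0.42. Dlat, a subunit of pyruvate dehydrogenase, was lower with CpG-A than with CpG-B (-0.70), as was Idh3a of the cycle (-0.64), while Idh2 read -1.13 (alternative 2.19). Of 30 probe sets for assembly factors outside the naming rule, 4 were called between CpG-A and CpG-B (13.3%, near the 12.9% of all probe sets), 3 lower, among them Acad9 (-0.82) and Ecsit (-0.75) of complex I assembly. The exception was Sco1 (0.75), which delivers copper to complex IV. With LIF 10 of the 30 were called (33.3%, against 16.9%), 8 lower, 1 higher and 1 unsettled. Cox17, the copper chaperone of complex IV, rose with CpG-A (0.79) and with CpG-B (0.74) against medium. Of 25 probe sets for mitochondrial DNA expression and biogenesis regulators, 4 were called between CpG-A and CpG-B (16%, near the 12.9% of all probe sets), 3 lower and 1 unsettled: Lrpprc (-0.78), which stabilises mitochondrial messages, Tfb1m (-1.08), Twnk (-0.82), the mitochondrial helicase, and Pprc1 (-1.12, alternative 2.20), a coactivator related to PGC-1. With LIF 3 of the 25 were called (12%, against 16.9%).

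Markers of pDC moved with the CpG class too, in the opposite sense. Of 17 pDC marker probe sets, Cox6a2 among them, 12 were called between CpG-A and CpG-B (12.9% of all probe sets were called). Of these calls 9 were higher with CpG-A (4.29% of all probe sets were called higher) and 3 unsettled, and the median of the 17 was 0.62. With LIF 13 were called (16.9% of all probe sets were), 6 of them higher, 1 lower and 6 unsettled, with a median of 0.65. The transcription factor Tcf4 was higher with CpG-A than with CpG-B by 1.03 without LIF, while Siglech, used to sort the cells, read 1.34 (alternative -1.98). Against medium, 8 of the 17 were called with CpG-A (median 0.11, 16.8% of all probe sets called) and 12 with CpG-B (median -0.27, 7 unsettled, 18.9% of all probe sets called). Of markers of other cells, called between CpG-A and CpG-B were 4 of 11 for B cells (median 0.14), 1 of 11 for T and NK cells (0.032), 3 of 12 for monocytes and macrophages (0.29) and 5 of 10 for conventional dendritic cells (0.040). For neutrophils and erythroid cells 0 of 9 were called by limma and 1 had an unadjusted p under 0.05, with a median of 0.46. Summed marker levels could not be formed from these values, and the part of cell composition in the members' readings was not tested.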

How the data were processed

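Sorted mouse pDC in 6 culture groups were measured on 17 Affymetrix arrays. The authors' deposited table holds values made with RMA, per the submitters' processing notes; the digits come without a decimal mark (419559 of 419560 cells are whole numbers), so the values are neither counts nor a usable linear or log intensity, and their log2 is known only up to multiples of 3.32. Probe sets were named through the platform annotation: 21354 had 1 symbol, 1275 several and 2051 no listed gene. Group means were taken on the folded log2 scale, arrays were placed the shortest way from their group mean, and each difference is the nearest reading. Groups were compared with limma 3.58.1 in R 4.3.3, 1 coefficient per group over all 17 arrays (11 residual and 6.3 prior degrees of freedom), with Benjamini-Hochberg adjustment over the 21354 probe sets. The fit was tried on simulated data for CpG-A against medium, with 50 changed probe sets of each size among 21354. The real comparison called 3596, which gives a looser Benjamini-Hochberg cut, so the simulated counts do not give its power. Of changes of 0.5 log2, 4 were called, of 1 log2 43, and of 3 log2 0. Of changes of 1.5 log2, 49 were called, 43 of them in the right direction. Tables and figures used Python 3.11.15, pandas 2.3.3, scipy 1.17.1 and matplotlib 3.10.9. RefSeq promoter windows were matched by Entrez gene identifier.

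The members and all gene lists were chosen with earlier results of these data known. Named were core subunits and isoform pairs in each complex, called members (by plan up to the 20 with the lowest adjusted p in a comparison, though not all of these were named), the members with the extreme readings of a complex, and up to 4 called genes of each other list. The 10 members shared between the lists with and without LIF were named after their values were seen. The lists were assembly factors outside the naming rule, cytochrome c with carriers, the tricarboxylic acid cycle, mitochondrial biogenesis regulators and markers of pDC, B cells, T and NK cells, monocytes and macrophages, conventional dendritic cells, and neutrophils with erythroid cells. Alternatives left out each array in turn, took the replicate number as a block, used only the groups compared, kept 1 probe set per gene, dropped the noisiest 10% of probe sets, centred the arrays or unfolded the values at their widest gap.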

Additional observations from a re-analysis of the deposited data

Results flagged for a closer look

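Ndufaf4, the early assembly factor of complex I, stood out because its 2 CpG effects against the same medium arrays ran in opposite directions and both passed the test. It fell with CpG-A (-1.03) and rose with CpG-B (0.61), and the difference between the 2, tested in the same fit, was -1.65 ± 0.14 (limma, adjusted p = 1.7e-06). Taken directly, the direction of that difference is not settled, and its nearest reading turned to 1.65 without CpG-A replicate 2. The arrays of the groups did not overlap when each was placed against medium. The rise with CpG-B had an adjusted p of 0.22 without medium replicate 3.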

How the results depend on the processing

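Of 136 calls of members over all comparisons, 71 kept an adjusted p under 0.05 in every alternative and 104 in every alternative that left no array out. Of the 71, 2 turned their reading. Those 2 lie near the edge of the scale, where a small shift turns the nearest reading into its alternative. Ndufaf4 between CpG-A and CpG-B read 1.65 without CpG-A replicate 2 and 1.62 without CpG-B replicate 3, and Ndufaf2 between CpG-B + LIF and LIF read -1.65 without LIF replicate 2, -1.61 without LIF replicate 3 and -1.58 without CpG-B + LIF replicate 3, over a range of leave-one-out readings whose highest was 1.64. With 1 probe set per gene 8 members were called between CpG-A + LIF and LIF, in place of 13, with fewer probe sets tested. Over all probe sets 3430 were called there, in place of 3723. Without the noisiest 10% of probe sets 1 member, Ndufs7, passed for the interaction of LIF with CpG-B (1.02 ± 0.23, limma adjusted p = 0.046), in place of 0. Over all probe sets 84 passed in that setting, in place of 23. The cause was not tested.

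Leaving out each array in turn gave 7 to 17 called members for CpG-A against medium, 11 to 27 for CpG-B against medium, 8 to 17 for CpG-A against CpG-B, 17 to 31 for the same with LIF, 10 to 15 for CpG-A + LIF against LIF and 30 to 44 for CpG-B + LIF against LIF, and 0 for each of the other 5 tests. The median readings ran between -0.11 and -0.014 for CpG-A against medium, 0.14 and 0.18 for CpG-B against medium, -0.027 and -0.0042 for LIF against medium, -0.25 and -0.14 for CpG-A against CpG-B, and -0.32 and -0.19 for the same with LIF. They ran between -0.0043 and 0.13 for CpG-A + LIF against CpG-A, 0.070 and 0.12 for CpG-B + LIF against CpG-B, -0.025 and 0.12 for CpG-A + LIF against LIF, and 0.22 and 0.29 for CpG-B + LIF against LIF. The replicate numbers were not taken to pair the arrays, because the labels state no shared source and not every pair correlated: over 40 pairs of arrays with the same number in different groups the correlation of deviations ran between -0.078 and 0.24, with 8 pairs over 0.1, against 2 of 80 pairs with other numbers. As a hint from the data that goes the other way, 14 of 17 arrays correlated best with their own number. With the replicate number as a block, 16 members were called for CpG-A against medium (3615 of all probe sets) and 25 for CpG-B against medium (4050). Between the CpG classes 16 were called without LIF (2861 of all) and 32 with LIF (3766). Against LIF alone 18 were called for CpG-A + LIF (3849 of all) and 41 for CpG-B + LIF (5531). In an alternative chosen after seeing the data, members whose arrays all lay within 3.16-fold gave 13, 20, 12, 27, 10 and 34 calls in the same order of comparisons.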
